A study of Mus with 14 samples.

Results

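The 7 genes described here encode receptors and adhesion molecules that hold blood-forming cells in the bone marrow or bring them there: Cxcr4, Selplg, Cd44, Itga4, Itgb1, Vcam1 and Esam. They were taken as a list of named genes, not by a threshold on their values, with earlier results of these data known, and each was found in all 14 libraries among 32285 genes. Expression was measured by droplet single-cell RNA sequencing that counts transcripts from their 3' ends, with 1 library for each mouse. The cells were bone marrow cells of transplanted mice, sorted as donor-derived (CD45.2+), without lineage markers and with Kit on the surface, a gate that holds stem cells and progenitors.

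There were 3 mice labelled MxCre, 4 labelled Dnmt3a, 3 labelled Dnmt3a;Tnfr1KO and 4 labelled Dnmt3a;Tnfr2KO. MxCre is a Cre recombinase transgene under an interferon-responsive promoter, which poly(I:C) switches on throughout the blood system. Per the series' design text, CD45.2+ cells were mixed with competitor CD45.1+ marrow and given to aged, lethally irradiated CD45.1+ mice. These primary recipients received poly(I:C), and their marrow was later moved into aged, irradiated secondary recipients, which were harvested 20 weeks after that transplant. The labels do not say which Dnmt3a allele was used, whether the Dnmt3a groups carry the Cre transgene as well, or which primary recipients supplied which mice. P-values therefore measure the spread between these recipients, which may share a donor.

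In marrow, CXCR4 on blood cells responds to the chemokine CXCL12 made by stromal and endothelial cells, and this signal retains stem cells and neutrophils. The integrin VLA-4, a pair of the alpha-4 chain (Itga4) and the beta-1 chain (Itgb1), binds VCAM-1 and fibronectin, while PSGL-1 (Selplg) and CD44 carry sugars that selectins recognize. ESAM is a junction protein of endothelial cells that mouse stem cells and megakaryocytes also display.

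On the RefSeq annotation of GRCm38, Cxcr4 lies at chr1:128588199-128592299, Itga4 at chr2:79255426-79333114 and Cd44 at chr2:102811141-102901669. Vcam1 lies at chr3:116110020-116129688, Selplg at chr5:113817798-113832528, Itgb1 at chr8:128685654-128733579 and Esam at chr9:37528089-37538319. Each value below counts reads assigned to the whole gene, so isoforms, such as those of Cd44, were not told apart.

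Of 86693 barcodes, 66895 were kept as cells, 1924 to 7265 in a mouse, with a median of 10633 to 39086 unique molecular identifiers (UMIs, each 1 captured transcript) per cell. The libraries held 6.2416e+07 to 1.6287e+08 UMIs in total. Dnmt3a replicate 1 kept 26.5% of its barcodes and each of the remaining 13 libraries 63.2% to 91.6%, and its kept cells were the deepest. Dnmt3a replicate 4 had the lowest median depth over all cells and held 2142 of the 3126 B lymphoid cells, with a median of 4634.5 UMIs. Its stem cells, granulocytes and monocytes were not shallow, with medians of 26123, 34610.5 and 36409 UMIs. The edgeR calls of the 7 genes were therefore also checked without Dnmt3a replicate 1 or 4, except in B lymphoid cells, where leaving out mice was not run. Leaving both out together was run only over all cells and in stem cells, monocytes and megakaryocytes. DESeq2 was run with all mice only. The marker genes and the wider adhesion lists are given with all mice. No pair of libraries shared more than 16 barcodes, and no pair shared more than 0.364% of the smaller library. Tnfrsf1b, the gene of TNF receptor 2, stood at 4.77 ± 0.631 CPM (UMIs scaled to a fixed total per library, SD, n = 4) in the Tnfr2KO mice and at 14.9 ± 1.75 (n = 4) in the Dnmt3a mice (log2 fold change -1.44, adjusted p = 0.000575). Tnfrsf1a, the gene of TNF receptor 1, stood at 36.1 ± 2.63 CPM (n = 3) in the mice labelled Tnfr1KO and at 47.2 ± 8.43 in the Dnmt3a mice (log2 fold change -0.19, adjusted p = 0.585). The transcript therefore gives no check of that label, since 3' reads can lie outside a deletion, and these libraries are called Tnfr1KO-labelled below. Dnmt3a itself was at 33.4 ± 4.33 CPM in the Dnmt3a mice and 25.3 ± 4.84 in MxCre (adjusted p = 0.0841), which gives no check of the Dnmt3a allele.

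Each cell was placed in the lineage of which it had the most of 6 marker genes, with at least 3 found. This gave 20332 granulocyte-like, 10646 monocyte-like, 6286 stem-like and early progenitor, 5720 erythroid-like, 3126 B lymphoid-like, 3030 megakaryocyte-like and 1249 basophil- and mast-like cells, and the suffix is dropped below. T and NK cells, macrophages and plasmacytoid dendritic cells were too few to test (178, 94 and 18 cells), and 16216 cells (24.2%) had no lineage. The call is a count of markers, not a boundary in the data: 24454 cells (36.6%) had exactly 3 markers or only 1 more than for another lineage. No member is among the markers. Kit averaged 101 to 134 CPM and Ptprc, the gene of CD45, 73.7 to 119 CPM in the 4 groups. Cdh5, which defines endothelium, averaged under 1 CPM in each group. The 8 endothelial and stromal markers that were checked, Cdh5 among them, summed to 5.31 to 33.7 CPM in a mouse over all cells.

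Levels are given in CPM of each mouse's summed cells, and differences as log2 fold changes from edgeR with a further scaling for composition (TMM). In the sum of all cells, fewer cells of a type and less RNA per cell cannot be told apart.

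The members divided the marrow lineages between them. Among the 7 lineages with sums in at least 8 mice, mean Cxcr4 was highest in B lymphoid, basophil and monocyte sums, Selplg and Cd44 in monocytes, Itga4 in basophils and erythroid cells, Itgb1 in megakaryocytes, Vcam1 in granulocytes and Esam in megakaryocytes and stem cells. Of 42 pairs of lineages next to each other in a member's order, 17 differed past an adjusted p of 0.05 in an exact paired sign-flip test over mice (two-sided; 0.000122 is the smallest p that 14 mice allow). The T and NK cells, which reached 20 cells in 2 mice, stood above all of these lineages' means for 4 of the genes. In Dnmt3a replicate 4 (84 cells) and Tnfr1KO-labelled replicate 2 (25 cells) they had 331 and 308 CPM of Selplg, 472 and 382 of Itga4, 385 and 388 of Itgb1, and 119 and 90.3 of Cd44. The B lymphoid means above rest on 8 mice, none of them Tnfr2KO. When at least 4 markers were required, some ranks of the lineages changed. Mean Cxcr4 was then highest in basophils (72.0 CPM, B lymphoid cells 69.2). Mean Itga4 was then higher in B lymphoid cells (201) than in erythroid cells (190). These 2 means come from different sets of mice. Of the 6 mice with both lineages only 2 had more Itga4 in B lymphoid cells.

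**Figure D1:**
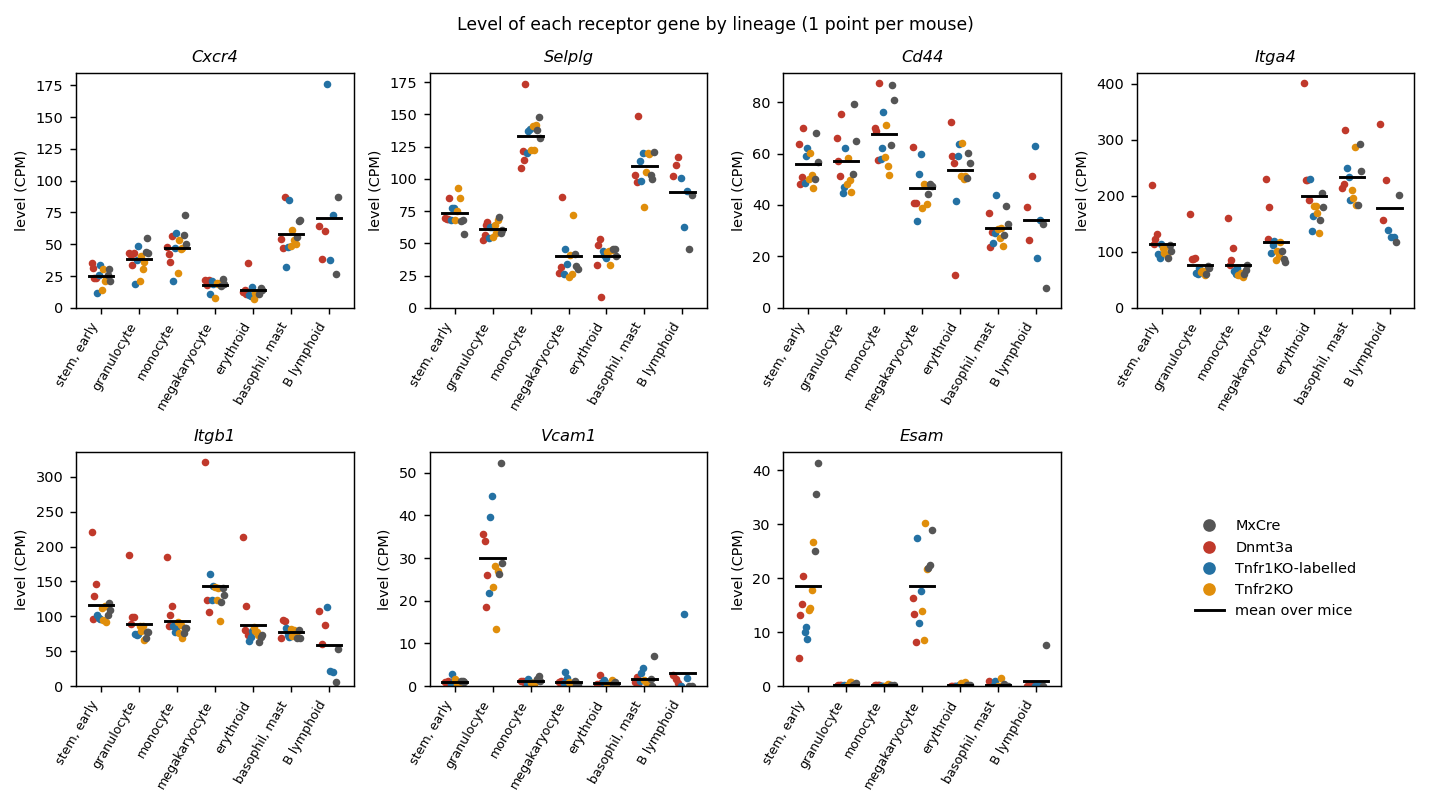
Level of each of the 7 receptor genes in CPM (y, linear axes from 0) in each of 7 lineages (x), with 1 point per mouse coloured by group and a line at the mean over mice. Mean Vcam1 is 29.95 CPM in granulocytes and at most 2.997 in the other lineages shown, and mean Esam is 18.6 and 18.5 CPM in megakaryocytes and stem cells and at most 0.975 in the others shown.

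Cxcr4, the CXCL12 receptor, averaged 70.5 CPM in B lymphoid cells, 58.4 in basophils, 47.4 in monocytes, 38.3 in granulocytes, 24.9 in stem cells, 18.3 in megakaryocytes and 13.7 in erythroid cells. Every step but the first passed the test. Granulocytes were above stem cells in 14 of 14 mice, with a mean log2 difference of 0.60 ± 0.20 (SD, exact sign-flip adjusted p = 0.000854). Stem cells in turn were above megakaryocytes in 13 of 13 mice (0.42 ± 0.28, exact sign-flip adjusted p = 0.00103). B lymphoid sums could be formed in 8 mice, none of them Tnfr2KO, and reached the top through a few of them. The highest, Tnfr1KO-labelled replicate 1, had 176 CPM from 14 UMIs in 28 cells. Of the 7 mice with both lineages only 2 had more Cxcr4 in B cells than in basophils.

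Selplg, the selectin ligand PSGL-1, averaged 133 CPM in monocytes, 110 in basophils, 89.6 in B lymphoid cells, 73.6 in stem cells, 61.0 in granulocytes, 40.3 in erythroid cells and 39.8 in megakaryocytes. Monocytes passed the test against basophils (13 of 13 mice, exact sign-flip adjusted p = 0.00103), stem cells against granulocytes (12 of 14, exact adjusted p = 0.00233) and granulocytes against erythroid cells (14 of 14, exact adjusted p = 0.000854). The other neighbours in this order did not pass. Basophils were above B lymphoid cells in 6 of 7 mice (exact adjusted p = 0.109). B lymphoid cells were above stem cells in 6 of 8 (exact adjusted p = 0.243), and erythroid cells above megakaryocytes in 10 of 13 (exact adjusted p = 0.266). With 7 or 8 mice the test cannot reach p-values as small as with 14. Dnmt3a replicate 4 had 8.44 CPM in erythroid cells.

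Cd44, the hyaluronan receptor, was the most even member. It averaged 67.7 CPM in monocytes, 57.2 in granulocytes, 56.1 in stem cells, 53.5 in erythroid cells, 46.5 in megakaryocytes, 34.2 in B lymphoid cells and 30.9 in basophils, a ratio of 2.19 from top to bottom. Monocytes were above granulocytes in 14 of 14 mice (exact sign-flip adjusted p = 0.000854) and erythroid cells above megakaryocytes in 13 of 13 (exact adjusted p = 0.00103). Stem cells were above erythroid cells in only 5 of 14 mice. The erythroid mean was lowered by Dnmt3a replicate 4, at 12.7 CPM against 41.5 to 72.4 in the other mice. Granulocytes were above stem cells in 7 of 14 mice, which were the 3 MxCre and 4 Dnmt3a mice, and below them in the 3 Tnfr1KO-labelled and 4 Tnfr2KO mice. This split was noticed in the values and was not tested, and in Tnfr1KO-labelled replicate 3 the levels were 62.1 and 62.2 CPM.

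The VLA-4 chains followed different orders. Itga4 averaged 233 CPM in basophils, 199 in erythroid cells, 178 in B lymphoid cells, 118 in megakaryocytes, 114 in stem cells, 77.3 in granulocytes and 75.9 in monocytes, and the steps from basophils to erythroid cells and from stem cells to granulocytes passed the test. Itgb1 averaged 144 CPM in megakaryocytes, 116 in stem cells, 93.0 in monocytes, 88.4 in granulocytes, 87.0 in erythroid cells, 77.9 in basophils and 58.7 in B lymphoid cells, and the first 3 steps passed. Across 93 sums of 1 mouse and 1 lineage, Pearson's r between the log2 levels of Itga4 and Itgb1 was 0.21. The highest r of any pair of members was 0.54, between Cxcr4 and Selplg. The sums share libraries and depth, so these are descriptions without a test.

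Vcam1, the VLA-4 ligand best known on endothelium and macrophages, averaged 29.95 CPM in granulocytes and at most 2.997 in every other lineage tested. Granulocytes made up a median of 28.0% of a mouse's cells and held a median of 90.3% of its Vcam1 UMIs. Cells thinned to 5000 UMIs each had a Vcam1 UMI in a median of 10.3% of granulocytes and 0.350% of monocytes (28.9% and 2.32% unthinned). Cells called macrophages, 0.0851% of a mouse's cells in the median, held a median of 0.679% of the Vcam1 UMIs, with 11.2% in the highest mouse. Their level was higher, though: in the 1 mouse with at least 20 of them, Tnfr1KO-labelled replicate 2, the 21 macrophages had 92 Vcam1 UMIs, or 284 CPM, against 39.6 CPM in its granulocytes.

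Within the granulocytes, a split by any UMI of the secondary granule genes Ltf, Camp or Ngp, chosen after the values had been seen and so given without a test, separated Vcam1 further. It averaged 24.4 CPM in the 15092 cells without such a UMI and 53.2 in the 5240 cells with one, and was higher in the latter in 13 of 14 mice. The median depths of these cell sets were 29119.5 and 29979 UMIs. Cxcr4 (36.5 and 43.1 CPM) and Cd44 (54.3 and 63.9) were higher with a granule UMI in 14 of 14 mice, while Selplg was lower in 14 of 14 (63.8 and 54.0). Secondary granules appear from the myelocyte stage of neutrophil maturation onward.

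Esam averaged 18.6 CPM in megakaryocytes and 18.5 in stem cells, and at most 0.975 in each other lineage tested. The stem class held a median of 44.8% of a mouse's Esam UMIs, the megakaryocytes 23.8% and the cells with no lineage 27.6%. After thinning to 5000 UMIs, a median of 8.80% of stem cells and 7.75% of megakaryocytes had an Esam UMI, against 0.184% of granulocytes and 0 of monocytes, which set the background (unthinned 21.7%, 23.1%, 0.487% and 0.333%).

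**Figure D2:**
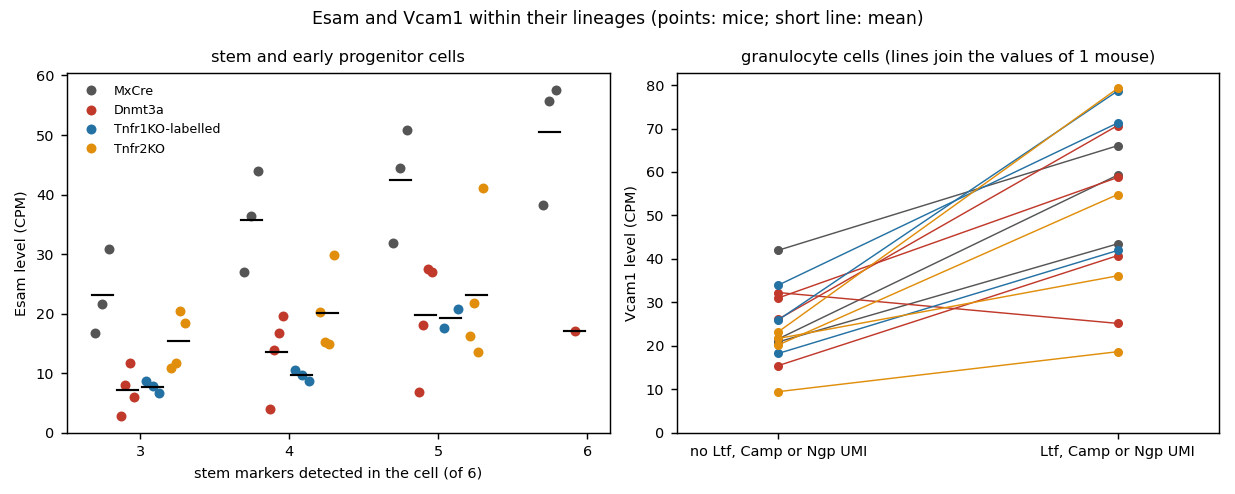
Levels in CPM (y) of Esam in stem cells by the number of stem markers found (left; points are mice, short lines group means) and of Vcam1 in granulocytes without and with a secondary granule UMI (right; lines join the values of 1 mouse). Mean Esam is lower in Dnmt3a than in MxCre mice at each number of markers, with 1 Dnmt3a mouse at 6 markers, and Vcam1 is higher with a granule UMI in 13 of 14 mice.

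The first comparison asks how the Dnmt3a mice differ from MxCre. Esam fell, both over all cells and within the stem class, and Itga4 rose in megakaryocytes. No other member was called by edgeR, while DESeq2 also called Itgb1 in erythroid cells. Over all cells 1 of the 7 members passed edgeR's quasi-likelihood test at an adjusted p under 0.05, where 2.45% of all genes tested passed. Within lineages 2 of 42 pairs of a member and a lineage passed by edgeR, 12 had an unadjusted p under 0.05 and DESeq2 called 3. Shares of all genes, here and below, are edgeR's adjusted calls, so the unadjusted and DESeq2 counts have no such share beside them. The share of all genes called was 10.5% in stem cells, 3.59% in granulocytes, 1.76% in monocytes, 0.438% in megakaryocytes, 0% in erythroid cells, 0.131% in basophils and 3.05% in B lymphoid cells, so 1 of 7 members in stem cells is near the background there.

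Over all cells Esam stood at 5.20, 6.90 and 16.0 CPM in the 3 MxCre mice and at 1.49, 3.14, 1.67 and 1.06 in the 4 Dnmt3a mice. Every MxCre mouse was above every Dnmt3a mouse, and MxCre replicate 3 was far above the other two. The fold change was -2.39 ± 0.45 (log2, SE), or 5.25-fold lower, with an edgeR adjusted p of 0.0305. MxCre replicate 3 also had the most stem cells and megakaryocytes, 23.5% and 16.3% of its cells, against 13.4% and 13.3% stem cells and 7.48% and 9.22% megakaryocytes in the other MxCre mice. In the Dnmt3a mice stem cells made up 10.02% ± 6.23 and megakaryocytes 3.13% ± 3.23 of cells (SD, n = 4), against 16.8% ± 5.86 and 10.99% ± 4.66 in MxCre (n = 3). Without MxCre replicate 3 the log2 fold change was -1.83 (edgeR adjusted p = 0.140), and the call was also lost without MxCre replicate 2, Dnmt3a replicate 1 or Dnmt3a replicate 3 (edgeR adjusted p = 0.0850, 0.0637 and 0.0618). It was lost as well in a fit of these 2 groups only (-2.41, edgeR adjusted p = 0.0881) and with both Dnmt3a replicates 1 and 4 left out, a choice made after seeing the data (-1.98, edgeR adjusted p = 0.140).

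In the stem class, itself a mixture of cells with 3 to 6 stem markers, Esam stood at 24.96, 35.6 and 41.4 CPM in MxCre and at 5.26, 13.1, 15.3 and 20.4 in Dnmt3a mice. The groups did not overlap, with Dnmt3a replicate 1 lowest and Dnmt3a replicate 4 highest of its group. The log2 fold change was -1.47 ± 0.31 (SE), or 2.77-fold lower, with an edgeR adjusted p of 0.00831. Over 16 other settings it lay between -1.69 and -1.06 and lost its call only without MxCre replicate 3 (-1.30, edgeR adjusted p = 0.0621). The share of stem cells with an Esam UMI after thinning was 16.7% ± 3.18 in MxCre and 8.57% ± 3.27 in Dnmt3a mice (SD), while in granulocytes it was 0.241% ± 0.0385 and 0.197% ± 0.0986. Granulocyte Esam, at levels under 1 CPM, had a log2 fold change of -1.10 that did not pass (edgeR adjusted p = 0.445).

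The same sums held less of several other transcripts in Dnmt3a mice. Procr, a stem cell surface receptor, fell by 2.10 on the log2 scale (edgeR adjusted p = 0.000862) and Pf4, a platelet chemokine, fell by 2.29 (edgeR adjusted p = 0.000862). Ly6a, the stem cell antigen Sca-1, fell by 1.22 (edgeR adjusted p = 0.0268), and the regulator Mecom fell by 0.59 (edgeR adjusted p = 0.0314). Hlf, another regulator of stem cells, did not pass (-0.13, edgeR adjusted p = 0.732). Procr, Ly6a, Mecom and Hlf are among the genes that define the class. The 6 megakaryocyte markers summed to 232 CPM in MxCre stem cells (182 to 264) and 112 in Dnmt3a stem cells (90.2 to 134), with none of them at 0 in any of these mice. The 8 endothelial and stromal markers summed to 33.2 CPM (30.5 to 35.4) and 17.7 (10.5 to 30.9), with up to 4 of the 8 at 0 in a mouse. The part of these cell types in the Esam difference was not tested.

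Esam also varied with how many of the 6 stem markers a cell had, a split made after the values had been seen and given without a test. With 3, 4 and 5 markers it averaged 23.1, 35.8 and 42.4 CPM in MxCre mice and 7.11, 13.5 and 19.8 in Dnmt3a mice. The Tnfr1KO-labelled mice had 7.70, 9.63 and 19.2, the last in 2 mice, and the Tnfr2KO mice 15.4, 20.1 and 23.1. At each of these numbers of markers the mean was thus lower in Dnmt3a mice than in MxCre. With 6 markers the 3 MxCre mice averaged 50.5 CPM and the 1 Dnmt3a mouse with at least 20 such cells had 17.1.

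In megakaryocytes Esam stood at 21.9, 22.5 and 29.0 CPM in MxCre and at 16.3, 13.4 and 8.16 in the 3 Dnmt3a mice with at least 20 such cells. These mice were below MxCre, but the 15 megakaryocytes of Dnmt3a replicate 4, too few for the test, held 13 Esam UMIs, or 31.8 CPM, above every MxCre mouse. Without that mouse the log2 fold change of -0.99 ± 0.37 did not pass (edgeR adjusted p = 0.183).

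**Figure D3:**
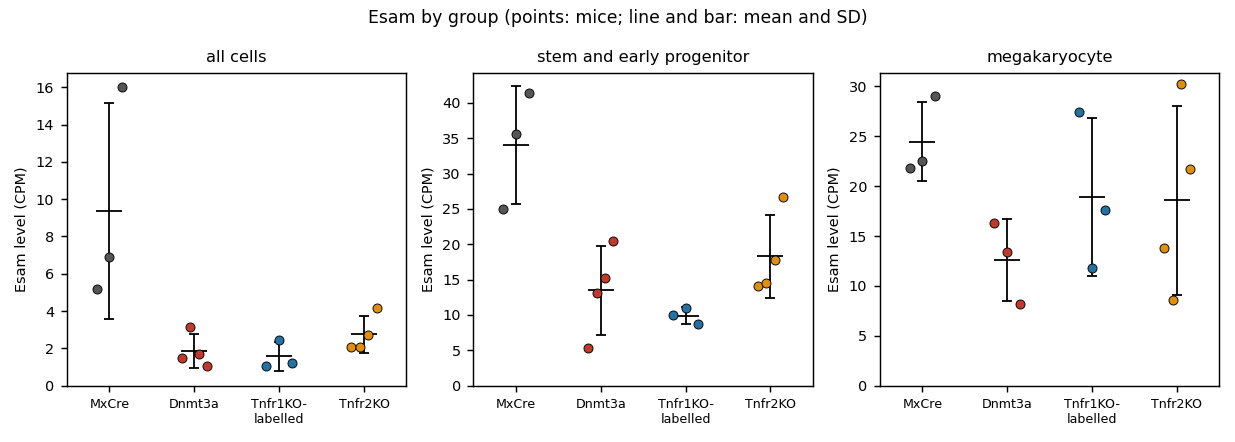
Esam in CPM per mouse (y, points, with the group mean as a line and the SD as a bar) in all cells, stem cells and megakaryocytes for the 4 groups (x). In stem cells the 3 MxCre mice, at 24.96 to 41.4 CPM, sit above all 4 Dnmt3a mice, at 5.26 to 20.4 CPM.

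Itga4 stood at 102, 86.5 and 82.4 CPM in the megakaryocytes of MxCre mice and at 230, 123 and 181 in those of Dnmt3a replicates 1 to 3, while replicate 4 had too few megakaryocytes (15). All 3 Dnmt3a mice were above MxCre, replicate 1 the most. The log2 fold change was 0.83 ± 0.17 (SE, edgeR adjusted p = 0.0459). The call is a narrow one: it was lost in 10 of 15 other settings, among them a fit of these 2 groups only (edgeR adjusted p = 0.139), without Dnmt3a replicate 1 (0.65, edgeR adjusted p = 0.202), without Dnmt3a replicate 3 (edgeR adjusted p = 0.0590) and without any 1 of the MxCre mice (edgeR adjusted p = 0.104 to 0.214).

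In the other lineages Itga4 had no call against MxCre, with log2 fold changes from -0.04 to 0.66 over all cells and the 6 other lineages. Over all cells it stood at 93.5, 104 and 101 CPM in MxCre and at 209, 115, 103 and 129 in Dnmt3a mice (0.37 ± 0.16, edgeR adjusted p = 0.186). Replicate 1 carried much of this difference, and Dnmt3a replicate 3 lay within the MxCre range. In stem cells the values were 88.1, 112.9 and 101 CPM in MxCre and 219.5, 113.4, 122 and 132 in Dnmt3a (0.46 ± 0.16, edgeR adjusted p = 0.0764). The groups nearly touched but did not overlap.

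Itgb1, the partner chain, had a positive log2 fold change in 7 of 7 lineages and passed in none by edgeR (adjusted p from 0.133 to 0.843). DESeq2 called it in erythroid cells (adjusted p = 0.0266), where it stood at 63.9, 70.4 and 73.2 CPM in MxCre and at 214, 79.8, 115 and 73.8 in Dnmt3a mice (edgeR log2 fold change 0.86, adjusted p = 0.257). In CPM, before the scaling given below, Dnmt3a replicate 1 was again the highest and replicate 4 just above the MxCre mice. Over all cells it stood at 77.4, 89.7 and 96.5 CPM in MxCre and at 198, 89.8, 105 and 103 in Dnmt3a mice (0.39 ± 0.19, edgeR adjusted p = 0.241). Dnmt3a replicate 1 was far above every other mouse and the other 3 were within or just above the MxCre range. The same replicate was highest of its group for Itgb1 in granulocytes (188 CPM against 89.1 to 99.3) and in megakaryocytes (320 against 124 and 106), and without it the megakaryocyte difference turned from positive to -0.22. The 15 megakaryocytes of Dnmt3a replicate 4, too few for the test, held 87 Itgb1 UMIs, or 213 CPM, above every MxCre mouse.

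CPM of Dnmt3a replicate 1 is not corrected for composition, and its TMM factors of 1.14 to 1.26 over the sums lower its scaled values. The erythroid sum of Dnmt3a replicate 4 had a TMM factor of 0.507, against 0.992 to 1.26 in the other mice. Its scaled erythroid values in edgeR, of every gene, therefore lie well above its CPM. Whether the share of barcodes kept or the depth of replicate 1 plays a part in the integrin levels was not tested.

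**Figure D4:**
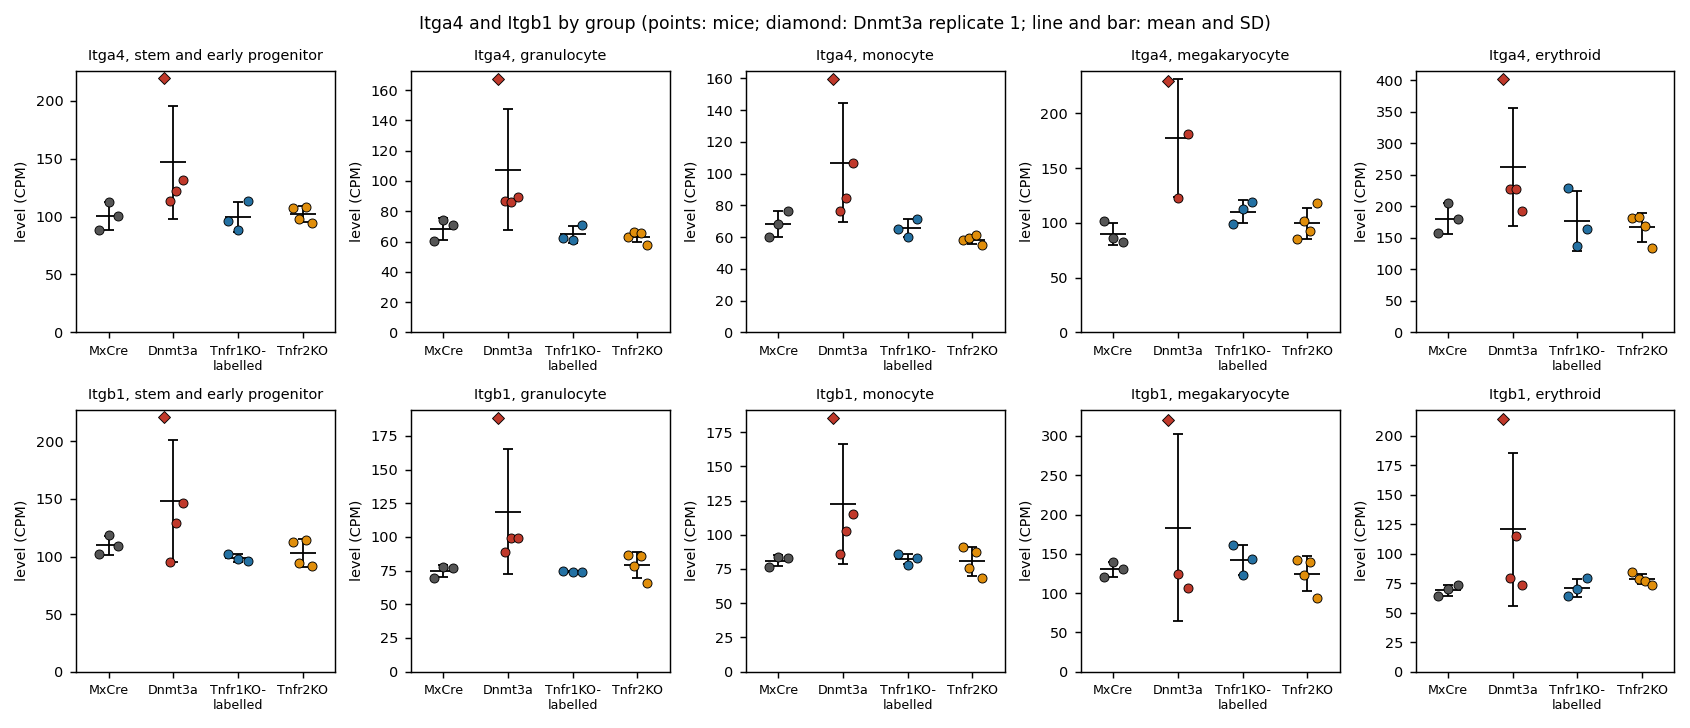
Itga4 (top) and Itgb1 (bottom) in CPM per mouse (y, points, with the group mean as a line and the SD as a bar) in stem cells, granulocytes, monocytes, megakaryocytes and erythroid cells for the 4 groups (x). Dnmt3a replicate 1, drawn as a diamond, is the highest mouse in each panel, at 167 CPM of Itga4 and 188 CPM of Itgb1 in granulocytes.

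The members that bind selectins, hyaluronan and CXCL12 did not pass against MxCre in any lineage. Cxcr4 stood over all cells at 34.1, 47.1 and 31.2 CPM in MxCre and 39.6, 34.7, 31.3 and 48.9 in Dnmt3a mice, so the groups overlapped (log2 fold change -0.06, 95% interval -0.56 to 0.45, edgeR adjusted p = 0.927). Selplg stood at 76.3, 72.6 and 63.9 CPM and at 73.6, 74.1, 82.6 and 105 (0.15, interval -0.12 to 0.41, edgeR adjusted p = 0.548). Cd44 stood at 51.9, 75.3 and 61.1 CPM and at 66.6, 56.5, 52.2 and 75.0 (-0.10, interval -0.36 to 0.17, edgeR adjusted p = 0.713).

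In monocytes Cxcr4 stood at 57.0, 73.0 and 50.3 CPM in MxCre and 47.6, 42.2, 35.9 and 56.8 in Dnmt3a mice, with 1 Dnmt3a mouse inside the MxCre range (-0.58 ± 0.27, edgeR adjusted p = 0.242). Vcam1 in granulocytes stood at 26.2, 52.4 and 28.8 CPM in MxCre and 35.7, 34.1, 18.6 and 25.97 in Dnmt3a mice. These groups overlapped.

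**Figure D5:**
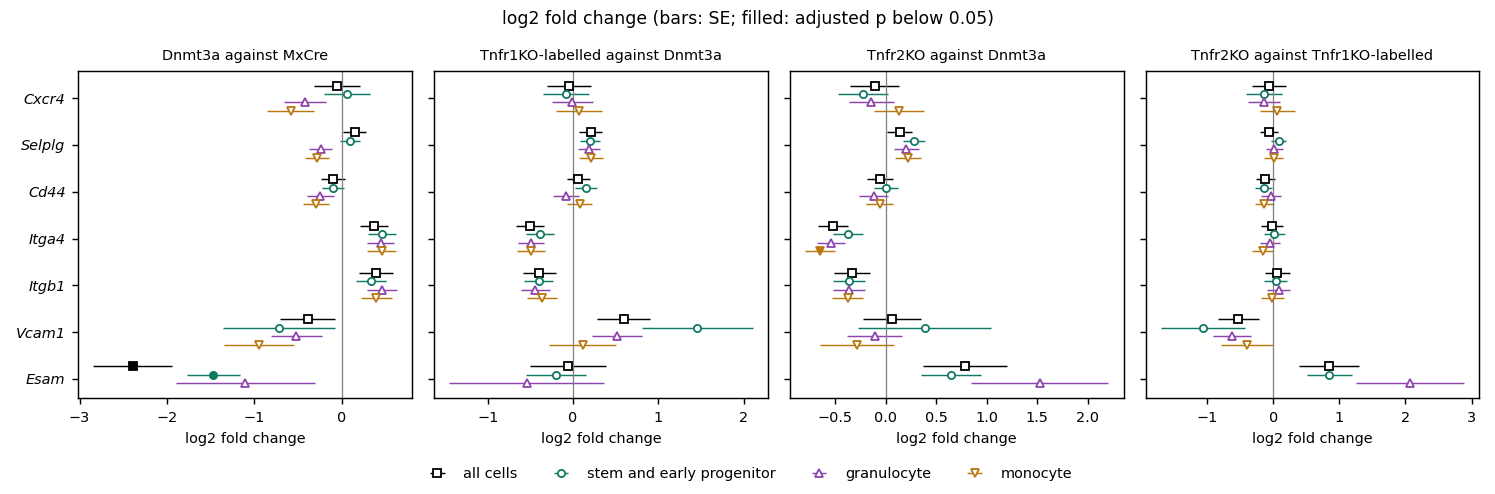
Log2 fold change (x, edgeR, with the SE as a bar) of each of the 7 receptor genes (y) in the 4 comparisons, over all cells and in stem cells, granulocytes and monocytes. Filled symbols passed an adjusted p of 0.05: Esam over all cells (-2.39) and in stem cells (-1.47) for Dnmt3a against MxCre, and monocyte Itga4 (-0.65) for Tnfr2KO against Dnmt3a.

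The next comparisons set the mice labelled as TNF receptor knockouts against the Dnmt3a mice. They share the 4 Dnmt3a mice with each other and with the first comparison, so a high Dnmt3a mouse enters all 3. Between the Tnfr1KO-labelled and Dnmt3a mice no member passed edgeR's test over all cells (1 of 7 at an unadjusted p under 0.05, 0 by DESeq2, with 0.519% of all genes called by edgeR). Within lineages 0 of 42 pairs passed by edgeR, 10 had an unadjusted p under 0.05 and DESeq2 called 1, Itga4 in granulocytes. The share of all genes called was 1.33% in stem cells, 3.53% in granulocytes, 1.38% in monocytes, 0.195% in megakaryocytes, 0.0273% in erythroid cells, 0.346% in basophils and 16.2% in B lymphoid cells.

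Itga4 had the most separated values. Over all cells the Tnfr1KO-labelled mice stood at 75.7, 87.5 and 90.0 CPM, below all 4 Dnmt3a mice (-0.51 ± 0.16, edgeR adjusted p = 0.128). In granulocytes they stood at 62.4, 61.0 and 71.2 CPM, against 167, 86.5, 86.4 and 89.4 in Dnmt3a mice and 60.1, 73.9 and 70.8 in MxCre (-0.49 ± 0.15 against Dnmt3a, edgeR adjusted p = 0.0859). Itgb1 over all cells was at 81.4, 80.3 and 81.6 CPM, again below all 4 Dnmt3a mice (-0.39 ± 0.19, edgeR adjusted p = 0.276).

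Esam in the stem cells of the Tnfr1KO-labelled mice was at 10.1, 10.98 and 8.69 CPM, within the Dnmt3a range (-0.20, interval -0.89 to 0.49, edgeR adjusted p = 0.817). Cxcr4 over all cells spread widely in this group, at 18.4, 31.6 and 48.5 CPM, with replicate 1 lowest of its group in all cells, stem cells, granulocytes and monocytes.

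Between the Tnfr2KO and Dnmt3a mice Itga4 fell in monocytes. This was 1 of 37 pairs of a member and a lineage by edgeR, in a lineage where 2.32% of all genes were called. Of the 37 pairs 13 had an unadjusted p under 0.05, and DESeq2 called 3, Itga4 in granulocytes, monocytes and megakaryocytes. No share of all genes is given for these 2 counts. In the other lineages edgeR called 0.75% (stem cells), 3.03% (granulocytes), 0.156% (megakaryocytes), 0.0819% (erythroid cells) and 0.346% (basophils) of all genes. Over all cells no member passed by edgeR, with 0.961% of all genes called, 1 of 7 members at an unadjusted p under 0.05, and 1, Itga4, called by DESeq2.

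Monocyte Itga4 stood at 57.9, 59.2, 61.4 and 55.2 CPM in the Tnfr2KO mice, at 160, 76.3, 84.7 and 106 in the Dnmt3a mice, at 59.9, 68.1 and 76.5 in MxCre and at 64.97, 60.3 and 71.6 in the Tnfr1KO-labelled mice. All 4 Tnfr2KO mice were below all 4 Dnmt3a mice, and the Dnmt3a mice were the widest group. The log2 fold change was -0.65 ± 0.15 (SE), or 1.57-fold lower, with an edgeR adjusted p of 0.0341. Without Dnmt3a replicate 1 it was -0.44 and still passed (edgeR adjusted p = 0.0475). Without Dnmt3a replicate 4 it did not (-0.65, edgeR adjusted p = 0.0563), nor without any 1 of the Tnfr2KO mice (edgeR adjusted p = 0.0670 to 0.0901). It did not pass in a fit of these 2 groups only (-0.66, edgeR adjusted p = 0.156), nor with both Dnmt3a replicates 1 and 4 left out (-0.33, edgeR adjusted p = 0.234).

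In granulocytes Itga4 stood at 63.1, 66.4, 65.7 and 57.9 CPM in the Tnfr2KO mice, all below the 4 Dnmt3a mice, and did not pass by edgeR (-0.54 ± 0.14, edgeR adjusted p = 0.0508). In megakaryocytes it stood at 85.6, 102, 92.5 and 118 CPM (-0.67 ± 0.16, edgeR adjusted p = 0.113). DESeq2 called both. Over the 6 lineages tested, the log2 fold changes of Itga4 and Itgb1 were negative in 6, and Itgb1 passed in none by edgeR. These lineages come from the same 8 mice and are not separate evidence.

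Esam in the stem cells of Tnfr2KO mice stood at 14.1, 14.5, 17.8 and 26.8 CPM, overlapping the Dnmt3a mice (0.65 ± 0.30, interval 0.06 to 1.24, edgeR adjusted p = 0.313 after adjustment over all genes). Cxcr4 over all cells stood at 21.0, 36.4, 31.6 and 34.5 CPM and Cd44 at 50.7, 60.6, 51.0 and 45.5. Neither gene differed from Dnmt3a mice beyond the spread of the groups (edgeR adjusted p = 0.803 and 0.816).

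The last comparison sets the Tnfr2KO against the Tnfr1KO-labelled mice, without the Dnmt3a mice. No member passed over all cells or within 6 lineages, in 7 and 37 tests by edgeR. Of these, 0 and 3 had an unadjusted p under 0.05, DESeq2 called none, and edgeR called 0.199% of all genes over all cells and 0.117%, 0.232%, 0.241%, 0.0292%, 0.0455% and 0.0716% in stem cells, granulocytes, monocytes, megakaryocytes, erythroid cells and basophils. Stem cell Esam was higher in all 4 Tnfr2KO mice than in the 3 Tnfr1KO-labelled mice, with means of 18.3 ± 5.87 and 9.91 ± 1.15 CPM (SD). The log2 fold change of 0.85 ± 0.34 did not pass (edgeR adjusted p = 0.816). In granulocytes it was 2.07 ± 0.82 (edgeR adjusted p = 1.000), at levels under 1 CPM: 0.0618, 0.132, 0.840 and 0.758 CPM in the Tnfr2KO mice and 0.0798, 0.147 and 0.1002 in the Tnfr1KO-labelled mice. Tnfr2KO replicates 3 and 4 were the high ones, with 51 and 57 UMIs, so the granulocyte level of Esam was not equal in all mice. For Itga4 over all cells the interval of the difference ran from -0.33 to 0.30 on the log2 scale, around -0.02.

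A further calculation gave each mouse the same makeup, the mean of its levels in stem cells, granulocytes, monocytes and erythroid cells with equal weight. The smallest exact permutation p, 0.0286, was reached by 2 of 28 tests of 7 members in 4 comparisons and is the smallest the design allows, so a single difference could not pass after adjustment (adjusted p = 0.4). One was Itga4, at 97.7 ± 8.29 CPM in Tnfr2KO and 156 ± 54.1 in Dnmt3a mice (SD). The other was Esam in Dnmt3a against MxCre mice, which restates its stem cell difference, since Esam is near 0 in the other lineages averaged and megakaryocytes are not among them.

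Beyond the 7 receptors, 107 other genes of adhesion and homing were read in 6 lists: integrin subunits, integrin activation and adaptors, homing receptors, CXCR4 signalling, selectins with their ligands, and junction and other adhesion genes. Over all cells 98 could be tested. Between Dnmt3a and MxCre mice 4 rose and 6 fell by edgeR, which is 10.2% of the lists' genes against 2.45% of all genes. Of the 98, 30 had an unadjusted p under 0.05 and DESeq2 called 19. For these 2 kinds of count no share of all genes is given, here or in the list results below. The lists were chosen with earlier results of these data known, so their shares are descriptions. Of the integrin subunits 0 of 20 rose and 1 fell, Itga2b, the platelet alpha-IIb chain (18.6 ± 9.09 CPM in Dnmt3a and 47.3 ± 15.2 in MxCre, SD, log2 fold change -1.42, edgeR adjusted p = 0.0386). The integrin adaptor Fermt3, or kindlin-3, fell by 0.44 (185 ± 25.03 and 236 ± 22.2 CPM, edgeR adjusted p = 0.0453) and was the 1 of 15 in its list to pass.

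In the CXCR4 list 2 of 16 rose and 1 fell. Dpp4, a protease that cleaves CXCL12, rose by 1.596 (17.8 ± 12.5 and 5.47 ± 0.814 CPM, edgeR adjusted p = 0.0469) and the G protein subunit Gnai3 by 0.44 (edgeR adjusted p = 0.0459). Rgs18, which speeds the shut-off of G protein signals, fell by 0.86 (91.7 ± 24.7 and 157 ± 23.2 CPM, edgeR adjusted p = 0.0428). None of the 13 homing receptors passed, though 11 of them had a positive log2 fold change (median 0.55, all genes 0.03). For Tnfr2KO against Dnmt3a, which shares the Dnmt3a mice, 2 of the 13 were positive (median -0.41, all genes -0.03). These medians were not tested. Among the junction and other adhesion genes 1 of 20 rose, Pecam1, or CD31 (0.92, edgeR adjusted p = 0.0256), and 2 fell, among them the tetraspanin Cd9 (-1.05, edgeR adjusted p = 0.0303). Of the 14 selectin genes 1 rose, Glg1 (0.71, edgeR adjusted p = 0.0443), and 1 fell.

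Within stem cells 81 of these genes could be tested, and 6 rose and 10 fell between Dnmt3a and MxCre mice, 19.8% against 10.5% of all genes (30 at an unadjusted p under 0.05, 18 called by DESeq2). Cd34, a sialomucin that selectins bind, rose from 273 ± 31.9 CPM in MxCre to 424 ± 25.9 in Dnmt3a mice (SD, log2 fold change 0.55, edgeR adjusted p = 0.00549). Dpp4 rose by 1.08 (edgeR adjusted p = 0.00485) and Pecam1 by 0.95 (edgeR adjusted p = 0.00394). Rasgrp2 and Apbb1ip, which activate integrins through the small GTPase Rap1, rose by 0.48 and 0.42 (edgeR adjusted p = 0.0133 and 0.0326).

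Those that fell in stem cells were spread over all 6 lists. F11r, the junction protein JAM-A, fell by 1.27 (edgeR adjusted p = 0.00273) and the tetraspanin Cd63 by 0.80 (edgeR adjusted p = 0.00402). S1pr1, the receptor that draws cells out of tissues, fell by 0.83 (7.62 ± 0.790 CPM in Dnmt3a and 12.8 ± 2.39 in MxCre, edgeR adjusted p = 0.0319). Rgs18 fell by 0.67 (edgeR adjusted p = 0.00817) and Fermt3 by 0.35 (edgeR adjusted p = 0.0208). Rgs18 and Fermt3 are also platelet lineage genes, as is Cd9, which is given above for all cells only. The megakaryocyte markers summed to lower levels in the same Dnmt3a stem cells, as given above. Whether this has a part in these falls was not tested.

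In the 3 comparisons that involve Tnfr1KO-labelled or Tnfr2KO mice no listed gene passed by edgeR, over all cells or in stem cells. Over all cells 13, 19 and 4 of the 98 had an unadjusted p under 0.05 and DESeq2 called 5, 4 and 0, in the order in which the comparisons stand above. In stem cells 10, 10 and 5 of the 81 had an unadjusted p under 0.05 and DESeq2 called none.

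The genes whose levels ran most like a member's, over the 93 sums of 1 mouse and 1 of 9 lineages, were taken from 7816 genes by Pearson's r of log2(CPM + 1). For Esam they included Mycn (r = 0.85). For Selplg they were Anxa6 (0.90), the integrin chain Itgal (0.88) and Ms4a6b (0.82), and for Itga4 they were Esyt2 (0.84), Fryl (0.83) and Herc1 (0.82). Vcam1 ran with Clec4a2 (0.81), with Fcnb (0.75), itself one of the granulocyte markers, and with Wfdc21 (0.71). Cxcr4 ran with Dok3 (0.79), Ube2w (0.76) and Prkcd (0.76), Itgb1 with Yeats2 (0.77), 1810030O07Rik (0.77) and Ylpm1 (0.76), and Cd44 with M6pr (0.71) and Kat14 (0.68). These r values rest on sums that share mice, libraries and depth and carry no test.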

How the data were processed

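The deposited matrices hold whole-number UMI counts per gene and cell, and the file headers name Cell Ranger 6.0.0 as the software that the authors used. The submitters' processing notes also name bcl2fastq 2.20.0.422 and the build mm10 (GRCm38). The members and gene lists were chosen with earlier results of these data known. A barcode was kept as a cell from 1000 UMIs and 500 detected genes upward if mitochondrial UMIs were below 10%, after the removal of 3143 doublets, the cells with most simulated doublets among their neighbours at 0.8% per 1000 cells. Counts were summed per mouse, over all cells and over lineages with at least 20 cells, and were tested with edgeR 4.0.16 (quasi-likelihood, TMM, filterByExpr, 4 groups in 1 model, two-sided) in R 4.3.3. P-values were adjusted over all genes by Benjamini-Hochberg, at 0.05. Fold changes are log2, with SE. The filter on low counts let all 7 members pass over all cells, and Vcam1 in 4 and Esam in 3 of 7 lineages. DESeq2 1.42.0, no filter, other marker minimums, stricter cells, doublets kept, thinned cells, a replicate block and leaving out each mouse were alternatives. Named genes besides the members were up to 2 called genes per list and direction of largest change with a mean of at least 10 CPM, 3 genes most like each member, the targeted genes and lineage markers. On simulated data for Dnmt3a against MxCre (13933 genes), 63% of 2-fold and 100% of 4-fold changes were recovered, with 10 false calls. This simulation covered all-cell sums only, gave every gene the same spread between mice and held no outlying mouse. Recovery in the real data and within lineages can therefore differ. Cd99 was not analysed here, and protein, surface levels and sequences were not measured or used. A few genes that this rule names are not reported here.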

Additional observations from a re-analysis of the deposited data

Results flagged for a closer look

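In 72 groups of 4 mice (a member in all cells or a lineage), 11 had a mouse far from the other 3, a gap that chance gives in about 1 of 20 groups. Of these, 4 were Dnmt3a replicate 1: Itga4 in granulocytes (167 CPM, others 86.4 to 89.4) and erythroid cells (401, others 192 to 228), and Itgb1 over all cells (198, others 89.8 to 105) and in granulocytes (188, others 89.1 to 99.3). Cxcr4 was low in Tnfr2KO replicate 1 in megakaryocytes (8.10 CPM, others 18.4 to 19.8) and erythroid cells (7.30, others 11.2 to 11.7). It was high in Dnmt3a replicate 4 in erythroid cells (35.3, others 11.02 to 13.7) and low in Dnmt3a replicate 3 in granulocytes (33.4, others 41.5 to 43.1). Selplg was high in the stem cells of Dnmt3a replicate 4 (85.4 CPM, others 68.7 to 69.7) and low in the erythroid cells of Tnfr2KO replicate 3 (32.9, others 43.6 to 44.5). Cd44 was high in the erythroid cells of Tnfr2KO replicate 2 (64.2 CPM, others 50.3 to 51.2).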

How the results depend on the processing

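Of 943 recomputed values of 63 results, 868 kept their direction and side of the threshold, 24 were weaker, 18 stronger and 33 turned in direction. No called value turned. The cause of each change was not tested. Within lineages, leaving out both Dnmt3a replicates 1 and 4 was run only in stem cells, monocytes and megakaryocytes. Against MxCre over all cells, where 1 member was called, 0 were called in a fit of these 2 groups only and with Dnmt3a replicates 1 and 4 both left out (added after seeing the data), and 0 to 1 with each mouse left out. Of the 2 calls within lineages there were 4 with no filter on low counts, 1 in the 2-group fit, with both mice out, with doublets kept, with 4 markers or with thinned cells, 3 by DESeq2, and 0 to 4 with each mouse left out. For Tnfr1KO-labelled against Dnmt3a, the 0 calls within lineages became 2 with no filter and 1 by DESeq2. For Tnfr2KO against Dnmt3a the 0 calls over all cells became 1 by DESeq2 and 0 to 1 with each mouse left out. The 1 call within lineages became 3 with no filter or by DESeq2, 2 with 4 markers, 0 in the 2-group fit or with both mice out, and 0 to 3 with each mouse left out.

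Several uncalled log2 fold changes changed sign. With both Dnmt3a mice out, Cxcr4 over all cells was 0.12 (Tnfr1KO-labelled against Dnmt3a) and 0.0334 (Tnfr2KO against Dnmt3a), Cd44 0.0663 (Tnfr2KO against Dnmt3a), and megakaryocyte Itgb1 -0.22 against MxCre, 0.38 for Tnfr1KO-labelled and 0.19 for Tnfr2KO. With each mouse left out in turn, values over all cells ran against MxCre from -0.21 to 0.13 for Cxcr4, -0.19 to 0.0436 for Cd44 and -0.67 to 0.17 for Vcam1. For Tnfr1KO-labelled against Dnmt3a they ran from -0.41 to 0.21 for Cxcr4, -0.0465 to 0.16 for Cd44 and -0.50 to 0.35 for Esam. For Tnfr2KO against Dnmt3a they ran from -0.18 to 0.0159 for Cxcr4, -0.11 to 0.0367 for Cd44 and -0.15 to 0.17 for Vcam1. For Tnfr2KO against Tnfr1KO-labelled they ran from -0.31 to 0.31 for Cxcr4, -0.0686 to 0.0300 for Itga4 and -0.0083 to 0.13 for Itgb1. Megakaryocyte Itgb1 ran from -0.22 to 0.57 against MxCre, from -0.40 to 0.38 for Tnfr1KO-labelled and from -0.59 to 0.19 for Tnfr2KO against Dnmt3a, and turned without Dnmt3a replicate 1. Dnmt3a replicate 4 was not in the megakaryocyte fits, so leaving both mice out there only leaves out replicate 1.

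Replicate numbers were treated as names only. Same-numbered mice correlated at a median of 0.04 (-0.48 to 0.45 over 19 pairs, 8 over 0.1). Differently numbered mice correlated at a median of -0.05 (-0.61 to 0.54 over 54 pairs, 19 over 0.1). Whether same-numbered mice share a donor or batch was not tested. With the replicate block, Itga4 over all cells was 0.014 for Tnfr2KO against Tnfr1KO-labelled, and stem cell Esam 0.0137 for Tnfr1KO-labelled against Dnmt3a. Leaving out mice was not run for B lymphoid cells.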
